A study of Mus musculus with 6 samples.

Results

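Smooth muscle type contractile genes and their regulator Srf were followed in 6 RNA-seq libraries of mouse satellite cells, which are the resident stem cells of skeletal muscle. The members were taken by gene symbol from the deposited expression table: Srf, the actin genes Acta2 and Actg2, the myosin genes Myh11 and Myl9, and the actin-associated genes Tagln, Cnn1, Cnn2 and Lmod1. All 9 were found among the 27366 features of the table. The cells came from skeletal muscle and were kept at day 4 of growth culture, in medium with 20% serum and basic FGF. The labels give the genotype Islr knockout for 3 libraries and control for 3, with the numbers 1 to 3 in each group. The series design speaks of sorting by flow cytometry for cells with and without Islr. The sources used here do not give the deletion allele, any Cre driver, the strain or the age of the mice. Nor do the labels tie the 3 libraries of a group to different mice or separate dishes: the p-values below reflect only the spread between these libraries, which may be technical.

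Smooth muscle contracts with its own set of actin, myosin and regulatory proteins. Their genes are classical targets of Srf, the serum response factor, which binds DNA at the CArG box. Srf acts with myocardin family cofactors on contractile and cytoskeletal genes and with ternary complex factors, which are phosphorylated by ERK, on early genes of the serum response. Some of these genes are not confined to smooth muscle: Acta2 is also made by myoblasts and by fibroblasts that become contractile, and Cnn2 and Myl9 occur in many cultured cells.

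The libraries held 16456917 to 20124943 reads on genes in those labelled Islr knockout and 16776805 to 20531276 in those labelled control. Islr levels overlapped between the groups. The libraries labelled Islr knockout 1, 2 and 3 had 256.7, 7.4 and 10.9 scaled reads of Islr, and those labelled control 1, 2 and 3 had 181.1, 12.8 and 1579; the log2 fold change was -2.43 with a 95% confidence interval from -7.77 to 2.92 in limma (adjusted p = 1.0), and from -7.28 to 2.42 with the replicate block (adjusted p = 0.924). By its Islr level, the library labelled Islr knockout 1 goes against its label, as it holds more Islr than control 1 and 2. The level in the library labelled control 2 goes against its label as well, since it lies near that of Islr knockout 2 and 3. As the deletion allele is not given, these levels cannot show whether a label is wrong. The text therefore speaks of libraries by their labels. Levels are read counts divided by the authors' size factor of each library (scaled reads), and fold changes are on the log2(scaled reads + 1) scale, which understates changes of low genes. Libraries of the same number tended to deviate together from their group means. Over the 14280 genes averaging 10 or more scaled reads, these deviations correlated at 0.689, 0.633 and 0.625 for numbers 1, 2 and 3. Between libraries of different numbers the correlations ran from -0.513 to -0.245. The main test has no block; values with the replicate number as a block are given beside it for the members and, as counts, for the gene lists. Myog, which marks differentiating muscle cells, spanned a wider range than any member. Libraries labelled Islr knockout 1, 2 and 3 had 37228, 1998 and 5737 scaled reads of Myog, and those labelled control 1, 2 and 3 had 43369.9, 417.2 and 43261.

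No member passed the threshold between the 2 groups of libraries. Acta2 was the most abundant member in every library. Myh11, Actg2 and Cnn1 had the largest log2 fold changes above 0, followed by Tagln and Cnn2. In Islr knockout 1, though, Myh11, Actg2 and Cnn1 were near or below the level of control 1. In limma over the 20344 genes averaging 1 or more scaled reads, 0 of 9 members had an adjusted p under 0.05, and 0.0% of all genes tested did. Of the members, 0 also had an unadjusted p under 0.05 (1.36% of all genes tested, 1.15% on the higher and 0.211% on the lower side), and the smallest was 0.229, for Actg2. With the replicate block the limma count was again 0 at the adjusted threshold, and 1 member, Myh11, had an unadjusted p under 0.05 (4.59% of all genes tested, 3.66% on the higher and 0.924% on the lower side). On recovered reads, edgeR (14214 genes kept by its filter) and DESeq2 (27366 features) also called 0 members and 0 genes. An unadjusted p under 0.05 was found for 1.14% of the edgeR genes and 1.16% of the DESeq2 features, and for 0 members in either. With the replicate block, edgeR called 0 genes, and 4.28% of its genes and 1 member had an unadjusted p under 0.05. DESeq2 with the block called 0.0475% of its features, 0 of them members, and 2.61% of its features and 1 member had an unadjusted p under 0.05. Tagln had no adjusted p in that fit. The authors' deposited table gives an adjusted p of 0.9998 for each member. The log2 fold change was above 0 in 5 members (53.0% of all genes tested) and below 0 in 4, with a median of 0.11, against 0.03 over all genes tested. The groups overlapped in each of the 9 members, while 2.65% of all genes tested had every library labelled Islr knockout above every one labelled control and 2.11% the opposite. In bulk RNA, fewer cells of a type and less RNA per cell cannot be told apart.

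**Figure D1:**
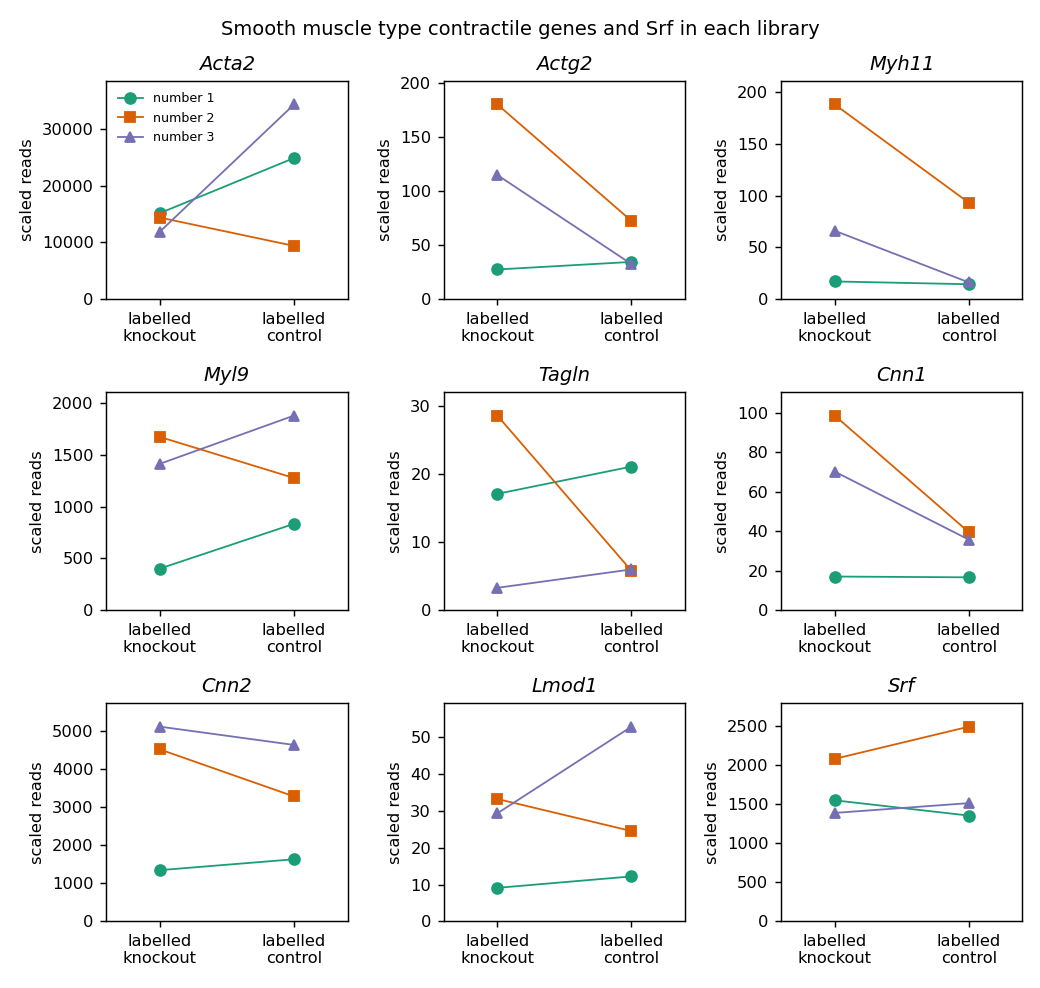
Scaled reads (linear axes from 0) of each member in the 3 libraries labelled Islr knockout, on the left of each panel, and the 3 labelled control, on the right; a line joins the 2 libraries of the same number. Lines of different slope within most panels show that the numbers do not go the same way; for Acta2 the libraries labelled Islr knockout sit between 11909 and 15170.1 scaled reads and those labelled control between 9388 and 34334.

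Levels of different members are compared per kilobase of merged exons in the GENCODE M21 annotation. Acta2 came first, at 6293 ± 774 scaled reads per kb in the libraries labelled Islr knockout and 10414 ± 5735 in those labelled control (SD, n = 3 each). Cnn2 followed at 1483 ± 821 scaled reads per kb in the libraries labelled Islr knockout and 1290 ± 610.0 in those labelled control. Myl9 stood at 1001 ± 577 in the libraries labelled Islr knockout and 1144 ± 451 in those labelled control, and Srf at 577 ± 125 in the libraries labelled Islr knockout and 617 ± 213 in those labelled control. The remaining members were far lower. Actg2 stood at 68.9 ± 49.1 scaled reads per kb in the libraries labelled Islr knockout and 29.8 ± 14.4 in those labelled control, and Cnn1 at 22.7 ± 15.1 in the libraries labelled Islr knockout and 11.2 ± 4.5 in those labelled control. Myh11, Tagln and Lmod1 closed the order with means of 11.9, 8.23 and 6.05 scaled reads per kb in the libraries labelled Islr knockout, and 5.43, 5.52 and 7.56 in those labelled control. Over the 6 libraries, the range of Acta2 did not overlap that of Cnn2, nor that of Srf the range of Actg2; all other neighbours in the order overlapped. Cnn2 exceeded Myl9 in 5 of 6 libraries and Myl9 exceeded Srf in 5 of 6, whereas Myh11 exceeded Tagln in 3 of 6 and Tagln exceeded Lmod1 in 3 of 6. The authors' deposited FPKM values, chosen as a check after the data were seen, gave all 9 members the same place. By mean FPKM, 0.417% of all features lay above Acta2, 3.04% above Cnn2, 3.96% above Myl9 and 7.15% above Srf, but 48.5% above Myh11 and 51.8% above Lmod1.

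**Figure D2:**
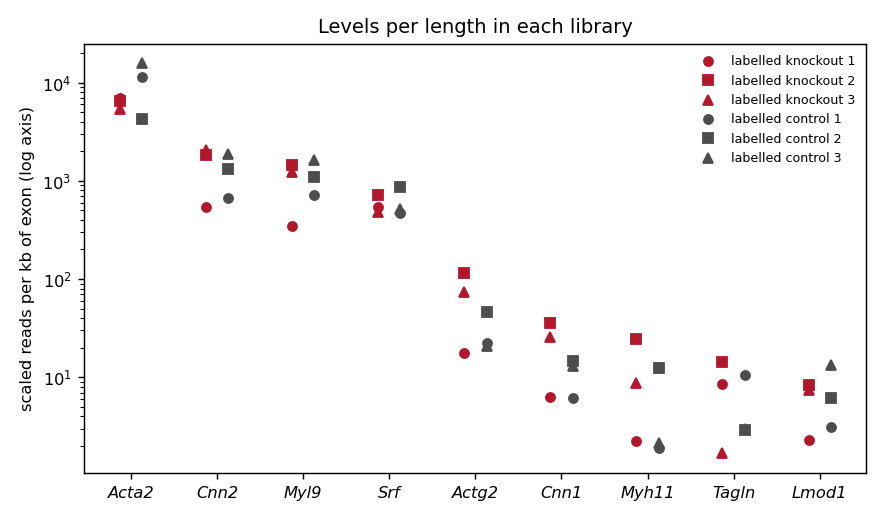
Scaled reads per kilobase of exon (log axis) of the 9 members in each library, with the libraries labelled Islr knockout left of those labelled control and marker shapes for the replicate numbers. Acta2, Cnn2, Myl9 and Srf lie between 347 and 15635 scaled reads per kb, and the other 5 members between 1.68 and 116.

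Srf (ENSMUSG00000015605, chromosome 17 from 46548329 to 46556175, minus strand, GRCm38) varied least among the members. It had 1547, 2077 and 1386 scaled reads in the libraries labelled Islr knockout 1, 2 and 3, and 1352, 2488 and 1511 in those labelled control 1, 2 and 3. The highest library was 1.84 times the lowest, and both libraries of number 2 were above the other 4. The log2 fold change was -0.06 with a 95% confidence interval from -0.76 to 0.63 in limma (adjusted p = 1.0), and from -0.50 to 0.37 with the replicate block (adjusted p = 0.9782). It turned to 0.20 without the library labelled control 2 and to 0.06 without that labelled Islr knockout 3.

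Promoters were searched for the CArG box, since it is the site through which Srf acts on its own gene and on the contractile genes. The RefSeq promoter table (GRCm38.p6, 250 bases before to 50 after a gene's start) held 6 of the 9 members: Acta2, Cnn1, Cnn2, Lmod1, Myl9 and Srf. The motif reads the same on both strands, so one pass covers both. It was present in the windows of Srf (in 2 copies), Cnn2 and Myl9, against 1.63% of all 32851 promoters with at least 1 copy and 0.018% with at least 2. The windows of Acta2 and Lmod1 held only matches with 1 of the 10 letters off, and that of Cnn1 neither kind. Beside their full boxes, the windows of Srf and Myl9 each held 1 such near match. That of Srf (CTTTATATGG) is left in lower case below, and that of Myl9 lies outside the printed stretch. Of all promoters, 21.1% had a full or such a near match. The sequences are shown to let the boxes of the regulator and of its abundant targets be compared. Each is printed 5′ to 3′ on the strand of the gene, with the CArG box in capitals (for Acta2, the near matches).
Srf, chr17:46556190-46556269, minus strand: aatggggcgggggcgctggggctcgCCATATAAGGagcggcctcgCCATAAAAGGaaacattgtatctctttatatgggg
Cnn2, chr10:79988519-79988578, plus strand: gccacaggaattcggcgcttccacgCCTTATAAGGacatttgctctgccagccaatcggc
Myl9, chr2:156775278-156775337, plus strand: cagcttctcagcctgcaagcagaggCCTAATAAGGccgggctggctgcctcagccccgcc
Acta2, chr19:34255438-34255467, minus strand: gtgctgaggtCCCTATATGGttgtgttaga
Acta2, chr19:34255388-34255417, minus strand: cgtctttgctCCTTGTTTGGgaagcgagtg
Both near matches of Acta2 lie upstream of its RefSeq start but inside its first GENCODE M21 exon, which starts earlier. A match is a description of these letters and shows no binding in these cells.

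Acta2 encodes the smooth muscle alpha actin (ENSMUSG00000035783, chromosome 19 from 34241090 to 34255590, minus strand, GRCm38). It had 15170.1, 14377 and 11909 scaled reads in the libraries labelled Islr knockout 1, 2 and 3, against 24885, 9388 and 34334 in those labelled control 1, 2 and 3. The 3 libraries labelled Islr knockout lay close together, while those labelled control held both the lowest and the 2 highest values. Its mean was 13819 ± 1701 in the libraries labelled Islr knockout and 22869 ± 12594 in those labelled control (SD, n = 3 each). Its log2 fold change was -0.54 ± 0.45 (SE), with an interval from -1.56 to 0.48 in limma (adjusted p = 1.0; with the replicate block, adjusted p = 0.9204). By number, the log2 ratio of the library labelled Islr knockout to that labelled control was -0.71, 0.61 and -1.53 for numbers 1, 2 and 3. The fold change was -0.15 without the library labelled control 3 and -1.09 without that labelled control 2.

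The other actin of smooth muscle, Actg2, encodes the gamma actin of gut and other visceral smooth muscle (ENSMUSG00000059430, chromosome 6 from 83512905 to 83536265, minus strand). It had 27.4, 179.9 and 114.7 scaled reads in the libraries labelled Islr knockout 1, 2 and 3, against 34.4, 72.3 and 32.4 in those labelled control. The libraries labelled Islr knockout 2 and 3 were above all others, and Islr knockout 1 was the lowest of the 6. The log2 fold change was 0.93 ± 0.72 (SE), with an interval from -0.70 to 2.55 in limma (adjusted p = 1.0); with the replicate block the interval ran from -0.12 to 1.97 (adjusted p = 0.9204). Leaving out Islr knockout 1 gave 1.71 and leaving out Islr knockout 2 gave 0.37. Reads of these actins could be told from those of other genes over nearly all their length: of all 50-base stretches of the annotated transcripts, 0.33% of those of Acta2 and 0.0% of those of Actg2 occurred in transcripts of another gene.

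Acta2 stood beside very different amounts of the skeletal and cardiac alpha actins, Acta1 and Actc1, which the sarcomere uses. Of the summed FPKM of 6 actin genes, Acta2 made up 4.1%, 7.89% and 9.53% in the libraries labelled Islr knockout 1, 2 and 3, and 5.62%, 5.32% and 14.0% in those labelled control 1, 2 and 3. Acta1 made up 56.8%, 4.03% and 16.1% in the libraries labelled Islr knockout 1, 2 and 3, and 54.0%, 0.641% and 31.3% in those labelled control. Acta2 was thus the most abundant alpha actin by FPKM in both libraries of number 2, which had the least Myog within their groups. The share of Actg2 did not exceed 0.151% in any library. The cytoplasmic actins Actb and Actg1 took most of the rest, with Actb between 15.6% and 60.0% in libraries labelled Islr knockout and between 17.1% and 61.4% in those labelled control.

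**Figure D3:**
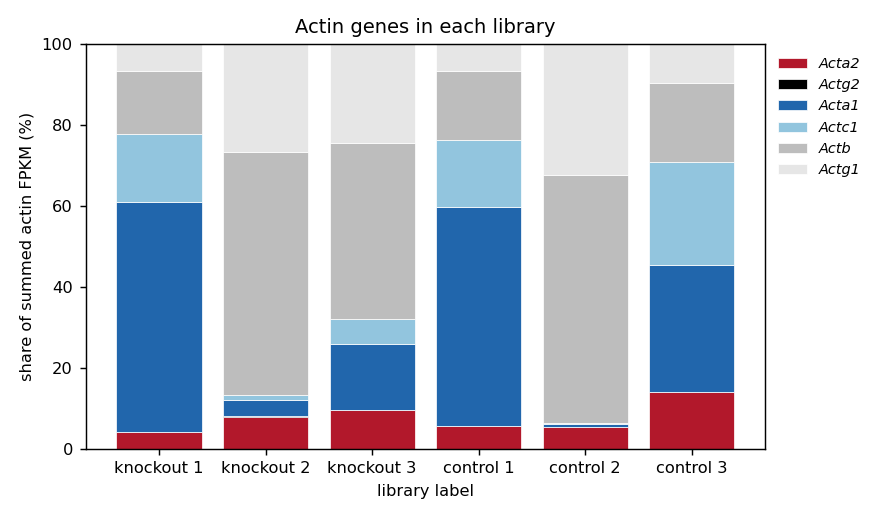
Share of 6 actin genes in their summed FPKM (stacked to 100%) in each library, with the 3 libraries labelled Islr knockout on the left. Acta2 spans 4.1% to 14.0%, Acta1 0.641% to 56.8%, and Actg2 is too small to see.

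Myh11 encodes the myosin heavy chain of smooth muscle and is used as a marker of its differentiated state (ENSMUSG00000018830, chromosome 16 from 14194535 to 14291372, minus strand). Its scaled reads were 17.1, 188.2 and 66.1 in the libraries labelled Islr knockout 1, 2 and 3, and 14.4, 93.2 and 16.2 in those labelled control 1, 2 and 3. It was the member with the widest span, the highest library being 13.0 times the lowest, and both libraries of number 2 were above the other 4. Within each number the library labelled Islr knockout was the higher, by a log2 ratio of 0.23, 1.01 and 1.96. Its log2 fold change was 1.07 with an SE of 0.99 in limma (adjusted p = 1.0). With the replicate block the SE was 0.45 and the interval ran from 0.05 to 2.08, with an unadjusted p of 0.0417 and an adjusted p of 0.9204. Leaving out Islr knockout 2 gave 0.25 and leaving out Islr knockout 1 gave 1.95. Of the 3 myosin heavy chains measured outside the sarcomere, Myh9, a nonmuscle form, made up 85.8% to 93.9% of the summed FPKM, and Myh11 at most 0.866%.

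Myl9, a regulatory light chain of smooth muscle and nonmuscle myosin (ENSMUSG00000067818, chromosome 2 from 156775420 to 156781658, plus strand), was far more abundant. It had 402.7, 1673 and 1414 scaled reads in the libraries labelled Islr knockout 1, 2 and 3, and 834.4, 1276 and 1879 in those labelled control 1, 2 and 3. Both libraries of number 1 were the lowest. Its log2 fold change was -0.36 ± 0.56 (SE) in limma (adjusted p = 1.0; with the replicate block, adjusted p = 0.9207), and it turned to 0.29 without the library labelled Islr knockout 1.

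The calponins bind actin and restrain myosin. Cnn1, the form typical of smooth muscle (ENSMUSG00000001349, chromosome 9 from 22099216 to 22109630, plus strand), had 17.1, 98.7 and 70.3 scaled reads in the libraries labelled Islr knockout 1, 2 and 3, against 16.7, 39.6 and 35.8 in those labelled control 1, 2 and 3. Islr knockout 2 and 3 were above all libraries labelled control, and the 2 libraries of number 1 were the lowest and nearly equal. The log2 ratio by number was 0.04, 1.30 and 0.95. The log2 fold change was 0.76 ± 0.72 (SE) in limma (adjusted p = 1.0; with the replicate block, SE 0.43 and adjusted p = 0.9204). Leaving out Islr knockout 2 gave 0.27 and leaving out control 1 gave 0.39.

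Cnn2, a calponin of many nonmuscle cells (ENSMUSG00000004665, chromosome 10 from 79988584 to 79996062, plus strand), had 1343, 4504 and 5100.5 scaled reads in the libraries labelled Islr knockout 1, 2 and 3, and 1628, 3272 and 4622 in those labelled control 1, 2 and 3. Values went with the replicate number, lowest in both libraries of number 1 and highest in both of number 3. Its log2 fold change was 0.11 ± 0.58 (SE) in limma, with an interval from -1.23 to 1.44 that narrowed to -0.36 to 0.58 with the replicate block (adjusted p = 1.0 and 0.961). It was below 0 without the libraries labelled Islr knockout 2 (-0.15), Islr knockout 3 (-0.24) or control 1 (-0.31). Within the calponin family, Cnn3 made up 63.3% to 91.7% of the summed FPKM, Cnn2 8.21% to 36.2% and Cnn1 at most 0.701%.

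Tagln, which encodes the actin-binding protein transgelin or SM22 alpha, is among the most abundant transcripts of smooth muscle, and was close to absent here (ENSMUSG00000032085, chromosome 9 from 45929619 to 45936058, minus strand). It had 15, 31 and 4 reads in the libraries labelled Islr knockout 1, 2 and 3, and 19, 5 and 7 in those labelled control 1, 2 and 3, or 3.3 to 28.6 scaled reads. Its log2 fold change was 0.38 ± 0.88 (SE) in limma (adjusted p = 1.0; with the replicate block, adjusted p = 0.9567), and leaving out Islr knockout 2 gave -0.20. Its paralogue Tagln2 had 7281, 13681 and 6788 scaled reads in the libraries labelled Islr knockout 1, 2 and 3, and 8357, 14718 and 5427 in those labelled control. Of the 1988 exon bases of Tagln, 1241 are shared with Gm48529, an antisense gene on the plus strand, and 108 with Pcsk7, a neighbour on that strand. Gm48529 is in the deposited table, at 2.8 to 19.4 scaled reads in libraries labelled Islr knockout and 13.6 to 23.3 in those labelled control. The sources used here do not give the strand handling, so reads in the shared exons may have been assigned to either gene or left out, and the level of Tagln is uncertain; the part of this overlap in its low count was not tested. No other member shared exon bases with another gene.

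Lmod1, leiomodin of smooth muscle, which starts actin filaments (ENSMUSG00000048096, chromosome 1 from 135324807 to 135368065, plus strand), had 9.1, 33.2 and 29.3 scaled reads in the libraries labelled Islr knockout 1, 2 and 3, and 12.2, 24.5 and 52.8 in those labelled control 1, 2 and 3. Both libraries of number 1 were the lowest, and the groups overlapped. Its log2 fold change was -0.26 ± 0.73 (SE) in limma (adjusted p = 1.0; with the replicate block, adjusted p = 0.9589). It turned to 0.29 without the library labelled Islr knockout 1 and to 0.25 without that labelled control 3. The striated muscle form Lmod3 ran from 142.1 to 4614 scaled reads in libraries labelled Islr knockout and from 18.6 to 4598 in those labelled control.

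**Figure D4:**
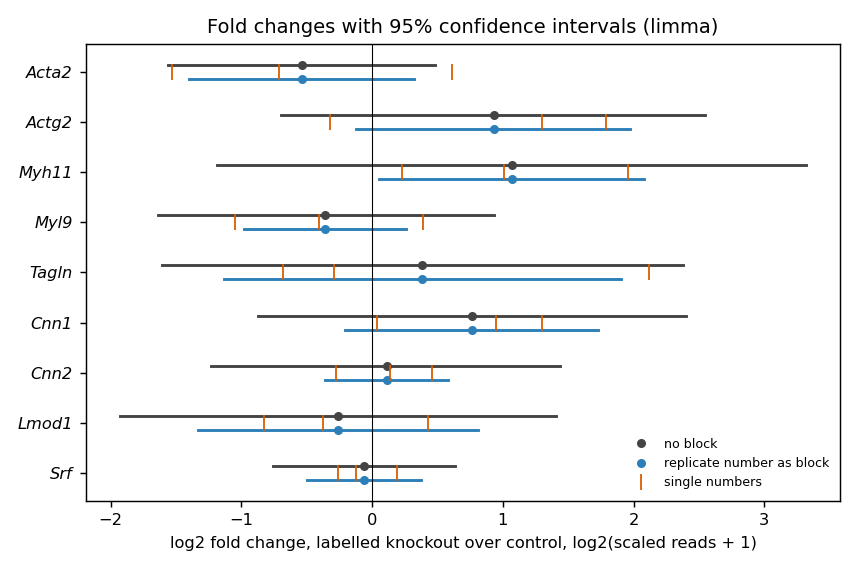
Log2 fold changes of the members, libraries labelled Islr knockout over those labelled control, with 95% confidence intervals from limma without a block (grey) and with the replicate number as a block (blue); orange ticks are the log2 ratios within numbers 1, 2 and 3. All grey intervals include 0, and of the blue ones that of Myh11, from 0.05 to 2.08, does not.

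Several members had their extreme values in libraries of the same number. Both libraries of number 1 were the lowest of the 6 for Myl9, Cnn1, Cnn2 and Lmod1, 4 of 9 members, as they were for 10.8% of all genes tested. Both libraries of number 2 were the highest for Myh11 and Srf, 2 of 9 (11.5% of all genes tested), and both of number 3 for Cnn2, 1 of 9 (15.8% of all genes tested). In 2 of 9 members, Myh11 and Cnn1, the library labelled Islr knockout was the higher one in every number, as in 12.2% of all genes tested, and in 0 of 9 it was the lower one in every number (12.1% of all genes tested). The median log2 ratio over the members was -0.29, 0.61 and -0.12 in numbers 1, 2 and 3, and 0.02, 0.00 and 0.01 over all genes tested. What the numbers mark is not given in the labels.

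Acta2 and Myh11 had their highest values in different libraries. In the libraries labelled control 1 and control 3, Acta2 was highest, and Myh11 was at 14.4 and 16.2 scaled reads; in those labelled Islr knockout 2 and control 2, Myh11 was highest, and Acta2 was at 14377 and 9388. As a description over 6 libraries that share replicate numbers, likeness was ranked among the 14280 genes, leaving out the members and features without a unique gene name. The genes most like Acta2 were Syf2, Akr1b8, Atg10 and Scnm1 (Pearson r of the log2 values 0.997 to 0.987). Those most like Myh11 were Hacd2, Slc45a3, Plxnd1 and Snx9 (r 0.999 to 0.986), and those most like Srf were Kmt5a, Pigq, Mdm1 and Ska3 (r 0.991 to 0.985).

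**Figure D5:**
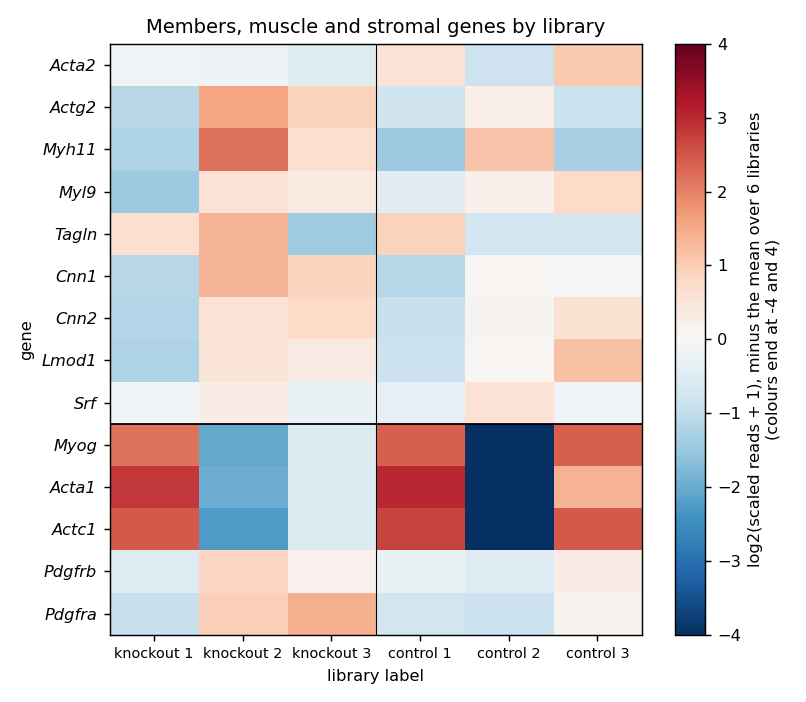
Log2(scaled reads + 1) of each member, of the muscle genes Myog, Acta1 and Actc1 and of the stromal markers Pdgfrb and Pdgfra in each library, minus the mean of the gene over 6 libraries; the 3 libraries labelled Islr knockout are on the left, and the most extreme values share the end colours. Actg2 and Cnn1 are highest in Islr knockout 2 and 3, and Myh11 is highest in Islr knockout 2 and control 2. Acta2 is highest in control 1 and 3, where Myog was 43369.9 and 43261 scaled reads. In Islr knockout 1, with Myog at 37228 scaled reads, Acta2 is just below its mean over the libraries, but above Islr knockout 2 and 3 and control 2. As a description over the 6 libraries, the log2 values of Myog had a Pearson r of 0.81 with Acta2, -0.89 with Myh11 and -0.87 with Srf.

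The cofactors of Srf were measured next. Myocd, or myocardin, the cofactor of smooth and cardiac muscle, was barely detected. Libraries labelled Islr knockout 1, 2 and 3 had 2.3, 4.6 and 3.3 scaled reads of it, and those labelled control 1, 2 and 3 had 2.2, 5.8 and 0.9. The broadly expressed myocardin-related factor Mrtfa had 1532, 1886 and 1117 scaled reads in the libraries labelled Islr knockout, against 1485, 1943 and 797.7 in those labelled control. Mrtfb had 828.3, 636.6 and 581.7 in the libraries labelled Islr knockout, against 572.2, 802.9 and 519.9 in those labelled control. The groups overlapped in both genes. The ternary complex factor Elk3 had 1428, 2306 and 1815 scaled reads in the libraries labelled Islr knockout, and 1509.8, 2155 and 1085 in those labelled control. Of the 6 cofactors, 0 passed the limma threshold and the log2 fold change was above 0 in all 6 (53.0% of all genes tested), with a median of 0.21. The median was 0.22, -0.23 and 0.53 in numbers 1, 2 and 3.

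A wider list held 34 genes of the actin cytoskeleton, among them known targets of Srf and its myocardin-related cofactors. In limma 0 of 34 passed the adjusted threshold and 1, Ccn2, had an unadjusted p under 0.05 (1.36% of all genes tested). With the replicate block in limma, Ccn2 no longer did (unadjusted p = 0.0845). With that block 3 of 34 did (4.59% of all genes tested), among them Ccn1 (0.0287) and Itga5 (0.0478). Of the 34, 21 were on the higher and 13 on the lower side in libraries labelled Islr knockout, with a median log2 fold change of 0.15. Of all genes tested, 53.0% were on the higher side. Ccn2, a secreted matrix-associated protein, had 2194, 6296 and 3586 scaled reads in the libraries labelled Islr knockout 1, 2 and 3, against 3112, 1402 and 1229 in those labelled control 1, 2 and 3 (log2 fold change 1.07 ± 0.47 SE). Its log2 ratio was -0.50, 2.17 and 1.54 in numbers 1, 2 and 3. The related Ccn1 had 8506, 9749.8 and 6939 scaled reads in the libraries labelled Islr knockout, against 8050.3, 6395 and 3234 in those labelled control. Both Ccn genes had their 2 lowest values in control libraries. Cald1, or caldesmon, which like calponin restrains actin and myosin, had 10868, 11665 and 13936 scaled reads in the libraries labelled Islr knockout and 8269, 11150.0 and 8053 in those labelled control. Tpm1, a tropomyosin of muscle and other cells, was lower within every number: it had 23579.5, 30963 and 22356 scaled reads in the libraries labelled Islr knockout, against 28889, 31425 and 41780.2 in those labelled control. Each of Ccn1, Cald1, Itga5 and Pdlim5 was higher in the library labelled Islr knockout within every number. Of the 34, 7 were higher in this way (12.2% of all genes tested) and 2 were lower (12.1% of all genes tested).

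Of 8 early genes of the serum response, on which Srf acts with the ternary complex factors, 0 passed the limma threshold. The log2 fold change was above 0 in 7 of them (median 0.29), as in 53.0% of all genes tested. An unadjusted p under 0.05 was found for 0 of the 8 (1.36% of all genes tested). With the replicate block it was found for 1, Fosb (4.59% of all genes tested, 3.66% on the higher side). Fosb, a subunit of the AP-1 factor, had 287.5, 219.6 and 152.3 scaled reads in the libraries labelled Islr knockout 1, 2 and 3, against 231.1, 87.4 and 17.9 in those labelled control 1, 2 and 3. For Fosb the log2 fold change was 1.55, with an interval from -0.35 to 3.45 in limma (unadjusted p = 0.0971), and from 0.46 to 2.65 with the replicate block (unadjusted p = 0.0112, adjusted p = 0.9204). Egr1 had 2836, 1459 and 1539 scaled reads in the libraries labelled Islr knockout, against 2815, 1323 and 1285 in those labelled control. Fosb and Egr1 were higher in the library labelled Islr knockout within every number, as were 3 of the 8 in all (12.2% of all genes tested). Striated muscle counterparts of the members (Acta1, Actc1, Lmod2, Lmod3, Myl1, Mylpf, Myl4, Myh3 and Myh8) gave 0 calls among 9, with a median of 0.19 that was 0.00, 2.70 and -2.01 in numbers 1, 2 and 3.

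Markers of other cells that a muscle preparation can hold, some of which make these contractile proteins, were also measured. For comparison, 53.0% of all genes tested had a log2 fold change above 0. Of 10 pericyte markers, 9 were tested, and 6 were on the higher side in libraries labelled Islr knockout; their summed level ran from 4731 to 6538 scaled reads there and from 4051 to 5479 in libraries labelled control. Rgs5, a pericyte marker, had 5.7, 194.7 and 124.7 scaled reads in the libraries labelled Islr knockout 1, 2 and 3, and 16.7, 145.7 and 422.7 in those labelled control 1, 2 and 3, lowest in both libraries of number 1. Cspg4 had 3075, 2328 and 1143 scaled reads in the libraries labelled Islr knockout, against 2564, 1659 and 608.5 in those labelled control. It was highest in number 1 and higher in the library labelled Islr knockout within every number. The pericyte markers thus did not share one pattern over the libraries. Kcnj8, another of them, was at 0 in the library labelled control 1. Of 10 vascular smooth muscle markers, 8 were in the table and 7 were tested, 4 of them on the higher side; their sum ran from 1462 to 4075 scaled reads in the libraries labelled Islr knockout and from 1028 to 4702 in those labelled control, mostly from Smtn, which the cytoskeleton list also holds, and Mustn1. Of 10 fibroblast and fibro-adipogenic markers, 9 had a log2 fold change above 0 (median 0.78, and -0.21, 1.80 and 0.36 in numbers 1, 2 and 3), and their sum ran from 9556 to 16176 in libraries labelled Islr knockout and 6526 to 16976 in those labelled control. Pdgfra, which defines fibro-adipogenic cells, had 83.3, 296.1 and 417.6 scaled reads in the libraries labelled Islr knockout 1, 2 and 3, and 91.1, 85.1 and 165.3 in those labelled control 1, 2 and 3. Pdgfra, Actg2, Myh11 and Cnn1 thus shared higher values in Islr knockout 2 and 3 than in the other library of the same number. Ly6a, Dcn, Lum, Col1a1, Smoc2 and all 7 endothelial markers did so too. So did the macrophage markers Adgre1, Csf1r, Cd68, Lyz2 and Spi1, the pericyte markers Cspg4, Mcam and Cox4i2, and Ccn1, Ccn2 and Fosb. Ptprc, Rgs5 and the other pericyte markers tested did not. The pattern was therefore not particular to markers of one cell type. The fibroblast markers Gsn and Col3a1 did not show the pattern, being lower in Islr knockout 3 than in control 3. Dpt and Pi16 did not show it either. They were near 0 and about level in Islr knockout 3 and control 3 (1.7 and 1.7 scaled reads of Dpt, 0.8 and 0.9 of Pi16). The share of all genes with this pattern was not counted. All 7 endothelial and all 6 macrophage markers were on the higher side (median 0.80 for each list). By number, the endothelial median was 0.09, 1.22 and 1.22 and the macrophage median -0.56, 1.51 and 1.73, so the macrophage list was on the lower side in number 1. With the replicate block, 3 endothelial markers (Cldn5, Cdh5 and Emcn) and 1 macrophage marker (Spi1) had an unadjusted p under 0.05 in limma, against 0 without it. So did 1 pericyte marker (Cspg4) and 1 fibroblast marker (Pdgfra). Of all genes tested, 4.59% did with the block (3.66% on the higher side) and 1.36% without it. The endothelial and macrophage lists had sums of 324 to 1440.0 and 97.0 to 894.7 scaled reads in libraries labelled Islr knockout and 321.1 to 637.4 and 143.3 to 294.9 in those labelled control; Ptprc, the pan-leukocyte marker, was at 0 in the 3 libraries labelled control and in Islr knockout 2. The part of such cells in the values of the members was not tested. The labelled cell type was checked by its own markers: Pax7, Myf5 and Myod1 were found in every library, with Pax7 at 1319 to 1667 scaled reads in libraries labelled Islr knockout and 1233 to 2729 in those labelled control. All 7 satellite cell and myoblast markers had a log2 fold change below 0 (median -0.25, and -0.02, -0.22 and -0.77 in numbers 1, 2 and 3). Of the 7, 2 were lower in the library labelled Islr knockout within every number (12.1% of all genes tested). Myod1 had 20943, 24544 and 18888 scaled reads in the libraries labelled Islr knockout, against 24224, 33818 and 32136 in those labelled control. For Myod1 the log2 fold change was -0.48 in limma (unadjusted p = 0.108; with the replicate block, unadjusted p = 0.0356 and adjusted p = 0.9204).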

How the data were processed

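The main deposited table gives 1 signal value per gene and library: the count of a gene after division by the size factor of its library, as the values themselves show. Per the file headers, the deposited table also holds FPKM values, and from the authors' comparison a log2 fold change with its p-value, raw and adjusted. FPKM values use a gene length that differs from the length column. The submitters' processing notes list HTSeq, Trimmomatic, edgeR 3.18.1, HISAT2 2.0.5 and DESeq2 1.16.1 without saying what each did. The sources used here do not give the genome build, annotation or strand handling; the spans of all members equal those of GENCODE M21 on GRCm38. The column taken as control 1 has 2 digits exchanged against its label; the other 5 equal theirs. Damaged lines (36) were dropped. The FPKM columns of a second table (6 per-sample columns) stayed out.

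The size of 1 read was recovered from each column: 100.0% of values were whole within 0.01, and all 480 genes that also have raw counts in a second deposited table had equal counts. Levels rest on 16456917 to 20531276 reads per library, and the members with few reads are the least precise.

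Tests used limma 3.58.1 (trend, robust) on log2(scaled reads + 1) for the 20344 genes averaging 1 or more. P-values are two-sided, adjusted over all these genes by Benjamini and Hochberg, and called under 0.05. The scripts were tested on simulated data. Alternatives were edgeR 4.0.16, DESeq2 1.42.0 and limma-voom on recovered reads, other scalings, pseudocounts and filters, a replicate block, and leaving out libraries. With 3 libraries against 3, an exact permutation test cannot go below p = 0.1, so none is given. Replicate numbers were taken to pair libraries because same-numbered libraries deviated together in each of 3 pairs. The pairing was thus judged on the same data, and deviations from a mean of 3 libraries are not independent of each other. The labels do not say what the numbers mark.

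Members and lists were chosen with earlier results of these data known. Named genes are the members, Islr, genes of each list with the smallest p, the 4 genes most correlated with Acta2, Myh11 or Srf, and Myog, Pdgfrb, Rgs5 and Pdgfra; other markers and Tagln2, Cnn3, Myh9, Lmod3, Actb, Actg1, Gm48529 and Pcsk7 were added as relatives or neighbours after values were seen.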

Additional observations from a re-analysis of the deposited data

How the results depend on the processing

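Over 22 alternative settings, 0 members passed the adjusted threshold in any, and the lowest adjusted p of a member was 0.2568 (limma, Actg2, with the replicate block and without number 1). The count of genes called was 0 in the main test and in all alternatives but these: it was 13 with DESeq2 and the replicate block, and 93 in limma with the replicate block without both libraries of number 1, and the cause was not tested. The replicate block in limma called 0 genes. Without 1 library each, limma called 0 genes and 0 members.

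The log2 fold changes of Acta2, Actg2, Myh11, Cnn1 and Islr kept their direction in every setting, with ranges of -1.12 to -0.05, 0.37 to 1.71, 0.25 to 1.95, 0.27 to 1.5 and -4.18 to -0.11. The other 5 members changed direction in some. Without 1 library each, values ran from -0.31 to 0.72 for Cnn2, -0.76 to 0.29 for Lmod1, -0.74 to 0.29 for Myl9, -0.24 to 0.20 for Srf and -0.20 to 1.19 for Tagln. With the replicate block and without number 2, they were -0.07 for Cnn2, 0.03 for Srf and -0.48 for Tagln; without number 3, 0.02 for Lmod1. The cause was not tested. Fits without 1 library had no block, and its same-numbered partner stayed unmatched. Other scalings, pseudocounts, filters and tools turned no member. Tagln, Lmod1, Myh11, Cnn1 and Actg2 rest on few reads in some libraries, and the spread between libraries was also wide for members with many reads (Cnn2, SE 0.58; Myl9, SE 0.56); the part of depth was not tested.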
